A study of Mus musculus with 20 samples.

Results

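SoxF is the subgroup of Sox transcription factors formed by Sox7, Sox17 and Sox18, and its members were taken as the rows of the count table that carry these gene names, which gave 3 of 55866 genes. Their mRNA was followed in female RiboTag-EC mice (Rpl22HA/HA x Cdh5CreERT2, strain C57BL/6J), in which Cre activity driven by the Cdh5 promoter adds a hemagglutinin (HA) tag to the ribosomal protein Rpl22. All mice, including those given control IgG, carried the tag, received 75 mg/kg of tamoxifen on 5 days starting at 3 weeks of age, and were implanted with Py8119 mammary tumor cells at 8 weeks. The 6-3-A6 group was given 25 mg/kg of 6-3-A6, a mouse antibody that blocks Notch4, and the control group was given control mouse IgG. Injections were intravenous, 2 per week over 10 days. They started once tumors measured 30 mm3 according to the sample labels, or 50 mm3 according to the text of the series. A part of each tumor homogenate was kept as input, and the rest was immunoprecipitated (IP) with anti-HA antibodies. There were 5 tumors per treatment and therefore 5 libraries in each of 4 groups, 20 in all. Input holds the mRNA of every cell in the tumor, while the IP fraction is enriched for ribosome-bound mRNA of cells in which Cdh5-driven Cre was active, and the Py8119 cells themselves carry no tag.

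Sox proteins bind DNA through a high-mobility group (HMG) box, which contacts the minor groove and bends the helix. The SoxF members are known in blood and lymphatic vessels: Sox17 and Sox18 act in arterial differentiation, Sox18 induces Prox1 in the embryonic vein as lymphatic vessels arise, and Sox7 acts in vessel formation beside them. They regulate overlapping endothelial genes, are linked to VEGF signaling, and lie close to the Notch pathway, since SoxF binding sites have been described at enhancers of Notch1 and Dll4.

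Because the members are related in sequence, it was checked whether reads could be assigned to the wrong one, with GENCODE transcripts on GRCm38. Over the aligned coding sequences, Sox7 and Sox17 were identical at 57.2% of bases, Sox17 and Sox18 at 56.8%, and Sox7 and Sox18 at 53.3%. The longest exact run shared by the transcripts was 29 bases (Sox17 and Sox18), 22 bases (Sox7 and Sox17) and 20 bases (Sox7 and Sox18), against reads of 100 bases. No read that matches along its whole length can therefore fit the transcripts of a pair equally well.

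In the count table, whose coordinates are GRCm39, Sox7 spans chr14:64181122-64188181 on the plus strand, Sox17 chr1:4561154-4567577 on the minus strand and Sox18 chr2:181311629-181313433 on the minus strand. Gene lengths there equal the whole span, introns included, so reads in introns were counted too. Over all libraries Sox18 held 32328 counts, Sox7 21831 and Sox17 4823. Sox17 is overlapped over 804 bases (12.5% of its span) by the predicted gene Gm37587, which held 3 counts in all, and no exon of the Sox17 transcript used here lies in the overlap on GRCm38. Neither Sox7 nor Sox18 is overlapped by another gene.

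Library totals ran from 11881214 to 26728205 counts (median 16942643), so that a floor of 3 counts corresponds to 0.112 to 0.252 CPM, the counts of a gene scaled to a common library total. The IP fraction was checked against 17 measured endothelial markers, whose mean log2 CPM lay between 2.00 and 3.44 in the 10 input libraries and between 5.50 and 8.11 in the 10 IP libraries. The description lines of the 10 6-3-A6 libraries name the opposite fraction from their titles, with the same number, and the marker levels followed the titles. Control IgG IP 4 (5.87) and 6-3-A6 IP 2 (5.50) were the lowest IP libraries, and 6-3-A6 input 4 (2.00) was the lowest input library. Among other cell types, 8 of 12 macrophage markers tested and 5 of 10 fibroblast markers were lower in IP than in input, with median log2 fold changes of -0.71 and -0.67, and 0 of either list were higher. Lower values in IP were also called for 2 of 7 epithelial and tumor cell markers (median -0.25), 3 of 6 lymphoid markers (-1.0) and 0 of 6 erythroid markers (-0.83), while 2 of 9 mural cell markers were higher and 1 was lower (-0.08). Macrophage transcripts stayed abundant in IP, with a summed level of 3411 to 9049.6 CPM against 5776 to 14654 CPM in input.

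All 3 SoxF genes were strongly enriched in the endothelial IP fraction, by 24.7- to 42.7-fold, and for each of them every IP library lay above every input library. Of 14488 genes tested, 19.6% were called higher in IP, 20.7% were called lower, and 5.02% were higher without overlap. Values are CPM scaled by the trimmed mean of M values (TMM). The treatment groups are compared further on.

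Sox18 had the highest level of the members per kb in each IP library. In control IgG input it stood at 4.25, 5.15, 4.25, 2.65 and 3.29 CPM in tumors 1 to 5, and in the IP fraction of the same tumors at 223.9, 112.2, 182.1, 58.4 and 93.7 CPM. With 6-3-A6 the input values were 3.83, 3.55, 3.46, 1.37 and 4.91 CPM and the IP values 190.3, 101.7, 251.2, 333.8 and 132.6 CPM. The lowest IP library, control IgG tumor 4, was still far above the highest input library, and the input and IP ranges did not overlap. Over 20 libraries with the treatment as a term, Sox18 was 42.7-fold higher in IP than in input (log2 fold change 5.42, SE 0.30, edgeR quasi-likelihood adjusted p = 3.39e-11), the second largest log2 fold change among 14488 genes tested (rank 2).

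Sox7 followed closely. In control IgG tumors 1 to 5 it rose from 4.63, 3.19, 2.92, 2.53 and 2.96 CPM in input to 164.6, 89.7, 122.4, 43.8 and 84.1 CPM in IP. In 6-3-A6 tumors the input values were 3.61, 2.77, 3.79, 2.91 and 1.92 CPM and the IP values 132.4, 62.2, 170.2, 178.7 and 71.9 CPM. Control IgG tumor 4 again gave the lowest IP value, and input values of the treatment groups were intermingled. Its enrichment was 33.7-fold (log2 5.08, SE 0.26, edgeR adjusted p = 3.39e-11), rank 13 by size and rank 1 by p-value.

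Sox17 was the least abundant member in both fractions. Control IgG input gave 0.646, 0.899, 1.33, 0.633 and 0.709 CPM and control IgG IP 24.4, 19.2, 33.5, 8.11 and 12.8 CPM. In 6-3-A6 tumors, input gave 0.676, 1.31, 1.56, 1.09 and 0.307 CPM and IP 34.9, 10.7, 51.3, 34.9 and 13.1 CPM. All IP values exceeded all input values, but the input values rest on few reads, between 4 and 37 counts per library. The 4 counts in 6-3-A6 input 5 have an exact 95% Poisson interval of 1.09 to 10.2 counts, which covers counting error only. The enrichment of Sox17 was 24.7-fold (log2 4.63, SE 0.34, edgeR adjusted p = 7.92e-10), rank 39 by size.

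**Figure D1:**
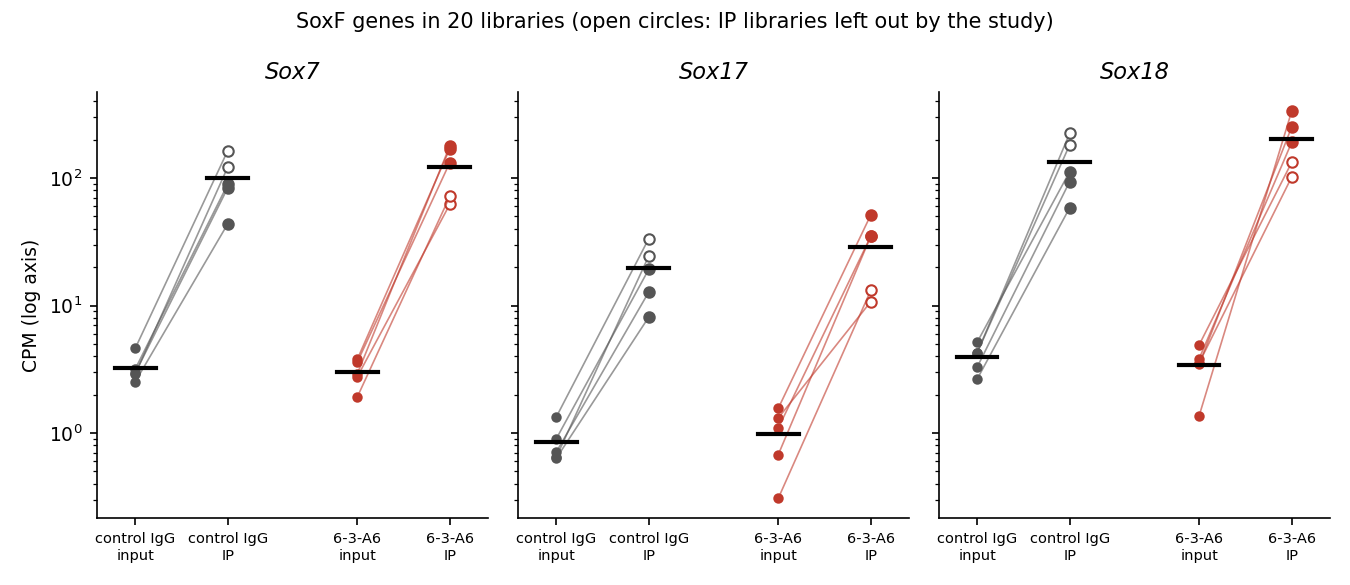
CPM on a log axis of Sox7, Sox17 and Sox18 in each of 20 libraries, where lines join input and IP of 1 tumor, thick bars are group means (n = 5) and open circles are the 4 IP libraries that the study left out. Each line rises from input to IP, and in each panel the open circles are the 2 highest control IgG and the 2 lowest 6-3-A6 IP libraries.

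These enrichments stand against a broad shift of the transcriptome, since 40.3% of genes tested were called in either direction. All 3 SoxF genes also passed the test in each treatment group. In control IgG tumors the log2 fold changes were 4.89 for Sox7, 4.49 for Sox17 and 5.04 for Sox18 (SE 0.37, 0.50 and 0.41, edgeR adjusted p of 1.96e-06 or less), where 8.26% of genes were called higher. In 6-3-A6 tumors they were 5.26, 4.75 and 5.79 (SE 0.38, 0.49 and 0.42, edgeR adjusted p of 6.16e-07 or less), where 12.8% of genes were called higher. Bulk libraries do not separate the number of cells of a type from the RNA per cell, and fewer endothelial cells and less SoxF RNA per endothelial cell cannot be told apart in input.

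The members were also compared with each other by the log2 ratio of IP to input within each tumor. Sox18 ranged from 4.41 to 7.82, Sox7 from 4.06 to 5.88 and Sox17 from 2.93 to 5.47 over 10 tumors, so the ranges overlapped. Sox17 was enriched less than Sox18 in 9 of 10 tumors, by 0.93 ± 0.93 (SD, n = 10, two-sided exact sign-flip permutation p = 0.00781). Sox17 was also enriched less than Sox7 in 9 of 10 tumors, by 0.57 ± 0.51 (exact permutation p = 0.00977). Sox18 exceeded Sox7 in 8 of 10 tumors by 0.36 ± 0.66 (exact permutation p = 0.0879), a difference within the spread between tumors. These were 3 pairs with unadjusted p-values, and 10 tumors allow no p below 0.00195. The ratios used log2 CPM with a prior count of 2. With a prior count of 0.5, Sox17 was enriched less than Sox18 by 0.83 (exact permutation p = 0.0156). It was then enriched less than Sox7 by 0.47 (exact permutation p = 0.0352). Sox18 exceeded Sox7 by 0.36 at that setting (exact permutation p = 0.111). Both Sox17 differences were thus smaller, with larger p-values. The largest single difference came from 6-3-A6 tumor 4, where Sox18 was at 15 counts in input (95% Poisson interval 8.40 to 24.7). That input library also had the lowest TMM factor of all libraries (0.78). Without that tumor Sox18 exceeded Sox7 by 0.19, and without 6-3-A6 tumor 5 by 0.45 (exact permutation p = 0.0195).

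Per length, the order of the levels was Sox18, Sox7, Sox17. In control IgG IP, CPM per kb of gene span was 74.3 ± 37.4 for Sox18, 14.3 ± 6.40 for Sox7 and 3.05 ± 1.55 for Sox17 (SD, n = 5). In 6-3-A6 IP the levels per kb were 111.9 ± 51.7, 17.4 ± 7.67 and 4.51 ± 2.64. On this scale the ranges of Sox18 and Sox7 did not overlap within an IP group, nor did those of Sox7 and Sox17, and the order was the same in each of the 10 IP libraries. Within libraries, Sox18 was 5.12 ± 0.54 times Sox7 in control IgG IP and 6.46 ± 0.78 times Sox7 in 6-3-A6 IP on this scale. Sox7 was 4.92 ± 1.19 and 4.28 ± 0.99 times Sox17 in the same groups. Because Sox7 and Sox17 have long introns relative to Sox18, the transcript length of 3299, 3127 and 1620 bases (Sox7, Sox17 and Sox18) was used as a second scale. Sox18 was then 2.67 ± 0.28 times Sox7 in control IgG IP and 3.36 ± 0.41 times Sox7 in 6-3-A6 IP, again above 1 in each library, although the ranges per kb of transcript overlapped between libraries in control IgG IP (36.05 to 138 for Sox18 and 13.3 to 49.9 for Sox7). In input the order also held, apart from 6-3-A6 input 4, where Sox18 was 0.955 times Sox7 per kb of transcript.

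**Figure D2:**
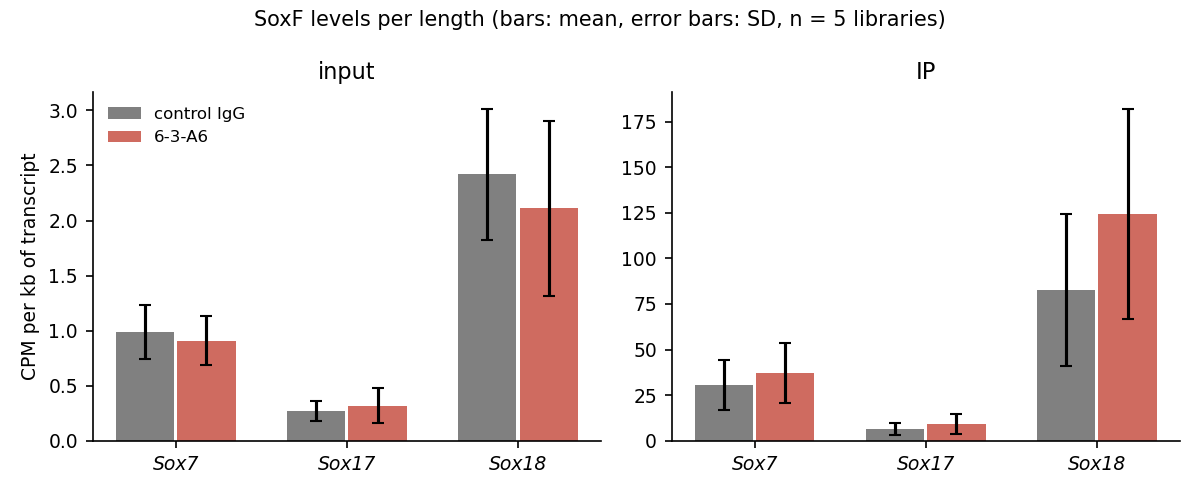
CPM per kb of transcript of Sox7, Sox17 and Sox18 in input (left) and IP (right) by treatment, where bars are means and error bars SD over 5 libraries. In control IgG IP the means are 82.8 for Sox18, 30.6 for Sox7 and 6.27 for Sox17, and the axes of the panels differ.

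Enrichment in IP was not a general property of Sox genes. Of 16 other Sox genes, 7 passed the filter on low counts, with a median log2 fold change of 0.19 against -0.06 for all genes tested, and 9 did not (Sox1, Sox2, Sox3, Sox8, Sox10, Sox14, Sox15, Sox21 and Sox30). Sox13, a SoxD member, was the only other Sox gene near the SoxF range: it stood at 0.633 to 1.80 CPM in input and at 10.2 to 48.2 CPM in IP (log2 4.35, SE 0.27, edgeR adjusted p = 9.36e-11). Sox11 was higher in IP at very low levels, with at most 3.66 CPM in any library (log2 2.52, SE 0.69, edgeR adjusted p = 0.00666). Sox9, a SoxE member expressed in many epithelial and mesenchymal cells, was at 88.7 to 347 CPM in input and 79.8 to 184 CPM in IP (log2 -0.64, SE 0.21, edgeR adjusted p = 0.0193). Sox4, a SoxC member and the most abundant of these at 149 to 577 CPM, had a log2 fold change of 0.19 (SE 0.19, edgeR adjusted p = 0.424).

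Other transcription factors of the endothelium, and partners of SoxF proteins, were enriched to very different degrees. Of 17 tested, 11 were higher in IP and 0 lower, with a median of 1.69. The ETS factor Erg came closest to the SoxF genes (log2 4.61, SE 0.34), followed by Bcl6b (3.59), Gata2 (3.51), the Notch target Hey1 (3.14) and the hypoxia-inducible factor Epas1 (3.07). The ETS factors Ets1 (2.35), Ets2 (1.99) and Fli1 (1.69), as well as Tal1 (2.53), Foxo1 (1.26) and Klf2 (0.81), rose less. Mef2c, a partner of Sox18, had a log2 fold change of 0.45 (edgeR adjusted p = 0.0818). Rbpj, the DNA-binding factor of Notch signaling, had a value of -0.07 (edgeR adjusted p = 0.665).

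Genes described as SoxF targets were mostly enriched as well. Of 11 tested, 8 were higher in IP and 1 was lower, with a median of 3.96. Those higher were the junction proteins Cldn5 (4.94) and Cdh5 (4.36), the guidance receptor Robo4 (4.75), the VEGF receptor Kdr (4.15), the Notch ligand Dll4 (4.00), the angiopoietin receptor Tek (3.96), Notch4 (3.89), the receptor that 6-3-A6 blocks, and the lymphatic regulator Prox1 (1.19). Vcam1, an adhesion molecule, was lower in IP (-0.93, SE 0.21, edgeR adjusted p = 0.00173). Notch1 (0.23) and the arterial ligand Efnb2 (0.17) did not pass the test.

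The SoxF enrichment was also set beside that of the endothelial markers, all 17 of which were higher in IP (median 4.36, range 3.16 to 5.12). The lists overlap: Cldn5, Cdh5, Kdr, Robo4 and Tek are also described SoxF targets, and Erg is also among the transcription factors. Clec14a (5.12), Cldn5 (4.94), Esam (4.90), Robo4 (4.75) and Tie1 (4.66) lay within the range of the SoxF genes.

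**Figure D3:**
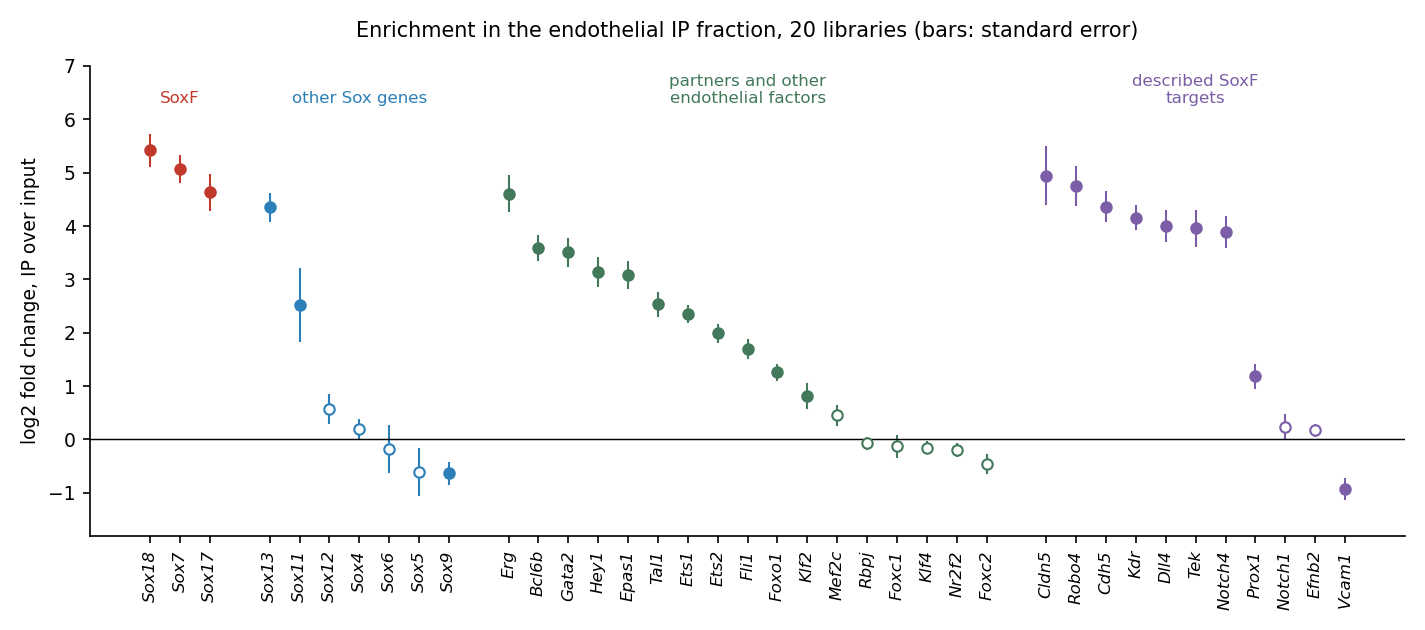
Log2 fold change of IP over input (edgeR, 20 libraries) with its standard error for SoxF genes, other Sox genes, partners and other endothelial transcription factors, and described SoxF targets, where filled circles have an adjusted p under 0.05. The SoxF genes lie between 4.63 and 5.42, and among the other groups Erg, Cldn5 and Robo4 reach that range or lie just beside it.

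Upstream of SoxF, the VEGF receptors Kdr (4.15), Flt4 (4.10) and Flt1 (3.23) were higher in IP, and the ligands Vegfb (-1.12), Vegfd (-0.96) and Vegfa (-0.53) were lower, while Vegfc, Nrp1 and Nrp2 did not pass the test, so 3 of 9 were higher and 3 lower (median 0.19). Arterial genes were higher in 6 of 8 cases (median 2.69), among them the connexin gene Gja4 (3.25) and Sema3g (4.15). Venous genes were higher in 4 of 6 cases and lower in 1 (median 1.32), with Aplnr (4.39) and Ackr1 (3.23) at the top and Nr2f2, the venous regulator, at -0.20 (edgeR adjusted p = 0.242). Of 6 lymphatic endothelial markers tested, 3 were higher and 1 was lower (median 0.82): Flt4, Mmrn1 (1.75) and Prox1 rose, Pdpn fell by 0.52, and Lyve1 and Reln did not pass the test. Prox1 was present at 0.981 to 2.06 CPM in input and 1.49 to 7.19 CPM in IP.

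Whether blockade of Notch4 changes the endothelial level of SoxF mRNA was asked by comparing 6-3-A6 with control IgG in IP. Over all 10 IP libraries no SoxF gene passed the test, and the groups overlapped for each gene. The log2 fold changes were 0.27 for Sox7 (95% interval -0.51 to 1.05), 0.55 for Sox17 (-0.41 to 1.51) and 0.57 for Sox18 (-0.24 to 1.39), with an edgeR adjusted p of 1 for each. No gene of 13602 was called in this comparison (0%), by edgeR, DESeq2 or limma voom with sample quality weights, while 286 had an unadjusted edgeR p under 0.05. The sizes moved with the setting: with endothelial content as a covariate they were 0.09 for Sox7, 0.28 for Sox17 and 0.43 for Sox18, and with limma voom and sample quality weights 0.66, 0.95 and 0.95 (adjusted p = 0.188, 0.153 and 0.102). With a library left out, Sox7 ranged from 0.10 to 0.52, Sox17 from 0.25 to 0.82 and Sox18 from 0.34 to 0.84, and none passed the test in edgeR. The low ends came without control IgG IP 4 for Sox7, 6-3-A6 IP 3 for Sox17 and 6-3-A6 IP 4 for Sox18, and the high ends without control IgG IP 1 for Sox7 and Sox18 and control IgG IP 3 for Sox17.

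The study made this comparison with 3 libraries per group after leaving out others on the basis of a principal component analysis. All 3 SoxF genes were higher with 6-3-A6 in these libraries, where 2.63% of 13999 genes were called higher, 2.09% lower and 4.72% in either direction. Sox18 stood at 112.2, 58.4 and 93.7 CPM in control IgG IP 2, 4 and 5 and at 190.3, 251.2 and 333.8 CPM in 6-3-A6 IP 1, 3 and 4, without overlap. The log2 fold change was 1.51 (SE 0.28, edgeR adjusted p = 0.0197). Sox17 was at 19.2, 8.11 and 12.8 CPM against 34.9, 51.3 and 34.9 CPM, also without overlap, with a log2 fold change of 1.56 (SE 0.30, edgeR adjusted p = 0.0223). Sox7 was at 89.7, 43.8 and 84.1 CPM against 132.4, 170.2 and 178.7 CPM, again without overlap, with a log2 fold change of 1.10 (SE 0.27, edgeR adjusted p = 0.0439). Of all genes tested, 13.5% were higher without overlap of these groups.

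For each SoxF gene, the libraries left out were the 2 highest of the control IgG group (IP 1 and 3) and the 2 lowest of the 6-3-A6 group (IP 2 and 5). Endothelial content moved with the difference. The mean log2 CPM of 17 endothelial markers was 5.87 to 7.49 in the 3 control IgG IP libraries kept and 7.61 to 7.89 in the 3 6-3-A6 IP libraries kept, and all 17 markers had positive log2 fold changes (median 0.86), 4 of which passed the test. Summed macrophage markers were 6661 to 7827 CPM in the control IgG and 3411 to 3912 CPM in the 6-3-A6 libraries kept, and 6 of 12 macrophage markers were called lower (median -0.93). The endothelial marker mean was also scored against other cells, by subtracting from it the average of the list means for macrophages, fibroblasts and epithelial and tumor cells, and this score was 0.21 to 1.59 in the control IgG and 3.01 to 3.04 in the 6-3-A6 libraries kept. Treatment and endothelial content therefore cannot be told apart in these 6 libraries. The call for all 3 genes was lost without 6-3-A6 IP 3 (edgeR adjusted p = 0.136 for Sox7, 0.0746 for Sox17 and 0.0561 for Sox18) and without 6-3-A6 IP 4 (0.127, 0.0516 and 0.0615). The call for Sox7 was also lost without control IgG IP 4 (0.0670) or 6-3-A6 IP 1 (0.0674).

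In input, SoxF levels of the treatment groups overlapped. The log2 fold changes of 6-3-A6 over control IgG were -0.10 for Sox7 (95% interval -0.71 to 0.51), 0.27 for Sox17 (-0.66 to 1.21) and -0.19 for Sox18 (-0.88 to 0.51), with an edgeR adjusted p of 1.00 for each, and 0 of 13683 genes were called (178 at an unadjusted p under 0.05, and 0 by DESeq2 or limma voom with sample quality weights). With a library left out, the value was -0.19 to 0.0733 for Sox7, 0.06 (6-3-A6 input 3 left out) to 0.49 (6-3-A6 input 5 left out) for Sox17 and -0.35 (6-3-A6 input 5 left out) to -0.0075 (6-3-A6 input 4 left out) for Sox18, and with limma voom and sample quality weights it was 0.21, 0.44 and 0.16 (adjusted p between 0.959 and 0.985). The difference in IP enrichment between the treatments was tested as an interaction over all 20 libraries, without a term for the tumor. It was 0.38 for Sox7 (SE 0.46), 0.26 for Sox17 (0.66) and 0.76 for Sox18 (0.50), with an edgeR adjusted p of 1.00, and 0 genes were called (127 at an unadjusted p under 0.05, and 0 by DESeq2). With a tumor left out it was 0.24 to 0.49 for Sox7, 0.06 (without 6-3-A6 tumor 1) to 0.58 (without 6-3-A6 tumor 2) for Sox17 and 0.35 to 1.03 for Sox18, where the lowest values of Sox7 and Sox18 came without 6-3-A6 tumor 4, whose input library held 15 Sox18 counts. In the tumors of the study libraries alone it was 0.82, 0.94 and 1.81 (edgeR adjusted p = 0.623, 0.677 and 0.523). With a term for each tumor over all 20 libraries it was 0.37, 0.24 and 0.74, and 0 genes were called.

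**Figure D4:**
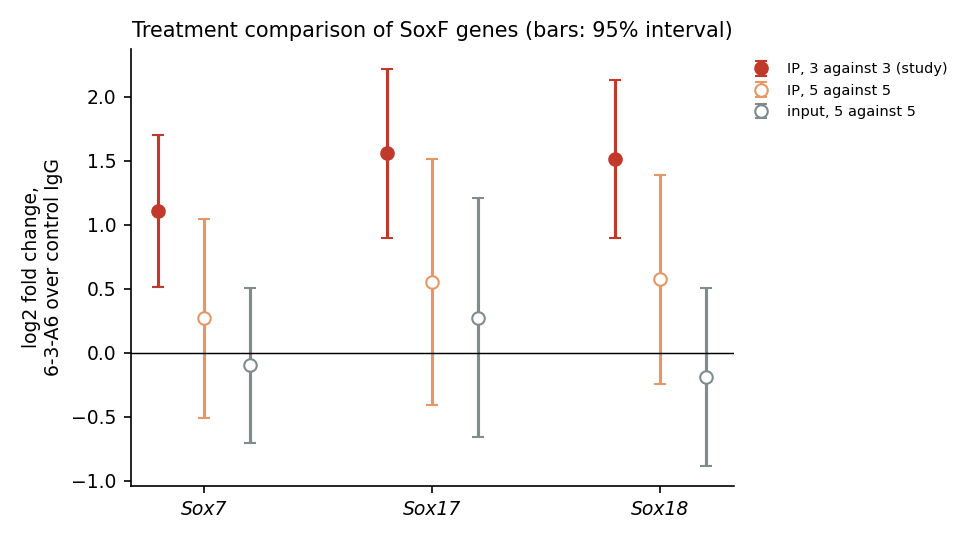
Log2 fold change of 6-3-A6 over control IgG with its 95% interval for Sox7, Sox17 and Sox18 in 3 sets of libraries (the 6 IP libraries of the study's comparison, the 10 IP libraries and the 10 input libraries), where filled circles have an edgeR adjusted p under 0.05. The intervals over all 10 IP libraries and in input span 0 for each gene, and those of the 6 libraries lie between 0.51 and 2.22.

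Over all 10 IP libraries the score of endothelial content overlapped between the groups (0.21 to 3.57 in control IgG, 0.31 to 3.04 in 6-3-A6). SoxF levels were then set against endothelial content. The log2 level of each gene was taken relative to the mean of the 17 endothelial markers in the same IP library. This ratio does not hold endothelial content fixed. The markers include Cldn5, Cdh5, Kdr, Robo4 and Tek, which are also described SoxF targets. Sox18 was at -0.30, -0.68, -0.54, 0.00 and -0.15 in control IgG IP 1 to 5 and at -0.31, 1.17, 0.36, 0.51 and -0.46 in 6-3-A6 IP 1 to 5. The groups overlapped, and the highest value came from 6-3-A6 IP 2, the IP library with the lowest endothelial marker mean (5.50). The mean was 0.59 higher with 6-3-A6 (two-sided exact permutation p = 0.103, n = 5 per group). For Sox17 the difference was 0.45 (exact permutation p = 0.238), with relative levels of -3.49 to -2.83 in control IgG and -3.78 to -1.93 in 6-3-A6 libraries. For Sox7 it was 0.25 (exact permutation p = 0.484), with -1.11 to -0.30 and -1.34 to 0.46. These were 3 genes with unadjusted p-values, where 5 against 5 allows no p below 0.00794. Without 6-3-A6 IP 2 the difference was 0.36 for Sox18 and 0.02 for Sox7, and without 6-3-A6 IP 5 it was 0.76 and 0.47. For Sox17 it was 0.27 without 6-3-A6 IP 3 and 0.73 without 6-3-A6 IP 5 (exact permutation p = 0.0159). Relative to the mean of Pecam1 and Cdh5 in place of the 17 markers, the difference was 0.39 for Sox7, 0.58 for Sox17 and 0.72 for Sox18 (exact permutation p = 0.389, 0.214 and 0.119). Among the 6 libraries of the study's comparison, relative levels of the groups differed by 0.46 for Sox18, 0.54 for Sox17 and 0.10 for Sox7, and no test was run on them, since the exact permutation test with 3 against 3 allows no p below 0.1.

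**Figure D5:**
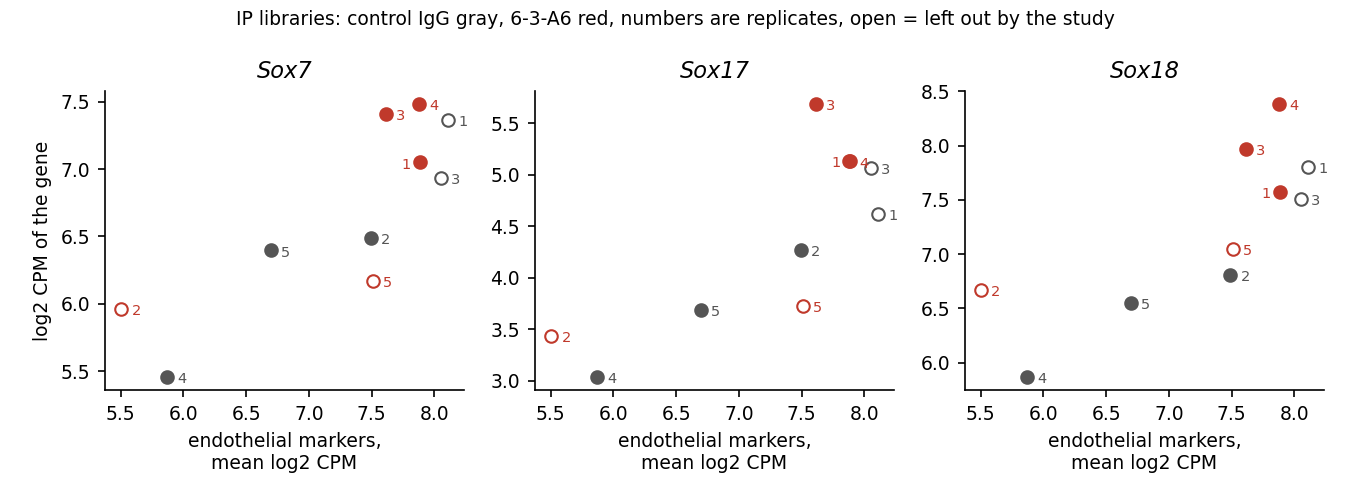
Log2 CPM of each SoxF gene against the mean log2 CPM of 17 endothelial markers in 10 IP libraries, control IgG in gray and 6-3-A6 in red, with open circles for libraries left out by the study and numbers for replicates. In each panel control IgG IP 4 is the lowest library, and 6-3-A6 IP 2 has the lowest marker mean at 5.50.

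Other genes were compared in the same 6 IP libraries. Of 7 other Sox genes tested, 1 was higher with 6-3-A6, namely Sox13, at 10.2 to 22.3 CPM in control IgG and 32.2 to 48.2 CPM in 6-3-A6 libraries (log2 1.22, SE 0.28, edgeR adjusted p = 0.0346), and the median was 0.01 against -0.05 for all genes. Among partners and other endothelial transcription factors, 5 of 17 were higher and 0 lower (median 0.86): Hey1 (1.55), Erg (1.37), Gata2 (1.23), Tal1 (1.12) and Klf2 (0.84). Among described SoxF targets, Cldn5 was higher (1.99, SE 0.45, edgeR adjusted p = 0.0346) and Vcam1 was lower (-1.46, SE 0.24, edgeR adjusted p = 0.0172), and the other 9 did not pass the test (median of 11 genes 0.59). Called genes numbered 0 of 9 for VEGF ligands and receptors (median -0.14), 1 of 8 for arterial genes (Hey1, median 0.44), 1 of 6 for venous genes (Vcam1, median 0.27) and 0 of 6 for lymphatic endothelial markers (median 0.78). The remaining marker lists gave 2 of 10 fibroblast markers lower (median -0.83), 2 of 7 epithelial and tumor cell markers lower (-0.97), 1 of 9 mural cell markers higher and 1 lower (-0.56), 0 of 5 lymphoid markers (-0.60) and 0 of 4 erythroid markers (3.21). With all 10 IP libraries or with input, 0 genes of any of these lists were called, by edgeR, DESeq2 or limma voom with sample quality weights. Over the 10 IP libraries the median log2 fold change was -0.10 for the 11 described SoxF targets, 4 of which were positive, and 0.35 for the 6 lymphatic endothelial markers tested. The highest value of both lists was that of Prox1, at 1.15 (SE 0.33, edgeR adjusted p = 1), with means of 2.26 CPM in control IgG and 5.05 CPM in 6-3-A6 IP.

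Across the 10 IP libraries the 3 SoxF genes varied together, with a Pearson r of log2 CPM of 0.95 for Sox7 and Sox18, 0.93 for Sox7 and Sox17, and 0.89 for Sox17 and Sox18. Their r with the mean of the endothelial markers was 0.83 (Sox7), 0.80 (Sox17) and 0.79 (Sox18). These are descriptions over 10 libraries that differ in endothelial content. By r among 11681 genes, Sox18 ranked 20 for Sox7, and Sox7 ranked 36 for Sox18. Sox17 ranked 72 for Sox7 and 220 for Sox18, while for Sox17 itself Sox7 ranked 143 and Sox18 ranked 280. Values of r of this size were thus not particular to the SoxF genes. Among 11681 genes, the 5 whose pattern was most like that of Sox7 were Ccser1 (r 0.98), the caveolar protein gene Cavin3 (0.97), the transcription factor Gata2 (0.97), Tcaf2 (0.97) and the secreted endothelial factor Egfl7 (0.97). Most like Sox17 were Dmtn (0.99), the LIM domain-binding protein gene Ldb2 (0.99), Osbpl10 (0.98), Trp53i11 (0.98) and Vil1 (0.98). Most like Sox18 were Cavin3 (0.98), Pdlim1 (0.98), Rbpms (0.98), Tnfaip8l1 (0.98) and Ccdc85c (0.98). Sox7 and Sox18 shared 1 of their 5 genes, Cavin3, and Sox17 shared 0 with either. All of these genes were higher in IP than in input, from Ccdc85c (log2 1.87) to Vil1 (4.77).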

How the data were processed

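Ribosome-bound and total mRNA of 10 tumors were measured by single-read RNA sequencing. The authors aligned the reads with STAR 2.7.4a (mm10 per the methods, whereas the count table carries GRCm39 coordinates: of 50574 genes also in the GRCm38 annotation, 1364 have the same start) and counted them with featureCounts 2.0.1 per the methods. The sources used here also list featureCounts 1.5.2. The strand setting is not given in the sources used here. The values used are the raw counts deposited by the authors. Their DESeq2 table holds the fold changes, standard errors, p-values and normalized counts of their own comparison and was not used, except that its header names the 6 IP libraries kept.

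Groups came from the sample titles. Counts were tested with edgeR 4.0.16 in R 4.3.3 (TMM, filterByExpr, robust quasi-likelihood F test, Benjamini-Hochberg over all genes tested, threshold 0.05). DESeq2 1.42.0 and limma 3.58.1 voom with sample quality weights (treatment comparisons only) were alternatives, beside library totals without TMM, no filter, the replicate block, endothelial content as a covariate and each library or tumor left out. The main fits hold no term for the tumor. The replicate block is by tumor for IP over input and the interaction, and by replicate number for the treatment comparisons. Log2 CPM used a prior count of 2 (0.5 as an alternative). Exact permutation tests used scipy 1.17.1, and coding sequences were aligned with mafft 7.526. The scripts for gene-wise tests were tested on simulated data. Depth limits precision: Poisson intervals of counts and the floor of 3 counts cover counting error only. The intervals of edgeR log2 fold changes come from the quasi-likelihood fit and also include the variation between libraries. In 40 pairs of libraries of 1 group, replicates differed beyond sampling noise. Input and IP of the same number come from 1 tumor, and their deviations from the group means correlated with r between -0.08 and 0.70 (median 0.38). The lowest r was that of 6-3-A6 tumor 4, which also had the highest log2 ratio of IP to input for Sox18 (7.82).

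The SoxF genes are always named, genes of the lists may be named with their values, and for each SoxF gene the 5 genes with the highest Pearson r over 10 IP libraries are named, among genes tested there with a mean log2 CPM of at least 1. The members and lists were chosen with earlier results of these data known. The ratio of members by treatment within IP libraries was added after the values were seen. Titles and the column names of the count table were followed where the description lines of the 6-3-A6 libraries name the opposite fraction. Member sequences are not reported here.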

Additional observations from a re-analysis of the deposited data

Results flagged for a closer look

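Of 24 groups of 5 values examined, 1 held a value set apart from the others by Dixon's criterion, which chance does in about 1 of 20 groups. In 6-3-A6 tumor 2 the log2 ratio of IP to input of Sox17 was 2.93, whereas the other 6-3-A6 tumors lay between 4.86 and 5.47. The gap was 0.759 of the range (critical value 0.71). In this tumor Sox17 was at 37 counts in input (1.31 CPM, against 0.307 to 1.56 CPM over the input libraries), and its IP library had the lowest mean of the endothelial markers (5.50 log2 CPM). Sox7 and Sox18 had ratios of 4.44 and 4.80 in the same tumor.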

How the results depend on the processing

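The enrichment of the 3 SoxF genes in IP kept its direction and its call under every alternative run. Numbers of genes called moved more: for IP over input 3392 with the tumors of the study libraries, and in control IgG tumors 3221 with the replicate block, 604 with the tumors of the study libraries and 762 to 2309 with a tumor left out (762 without control IgG tumor 3, 853 without 2, 1004 without 1 and 1057 without 5). The block moved the other counts of IP over input by less than 1.5 times (7368 over both treatments, 5525 with 6-3-A6) and changed no call of a SoxF gene. With library totals in place of TMM the median log2 fold change of all genes moved from -0.06 to 0.12, and the split of higher and lower calls in IP over input from 2834 and 3004 to 3940 and 1719 (6-3-A6 from 1858 and 1943 to 2626 and 977, control IgG from 1197 and 448 to 1483 and 158).

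For 6-3-A6 over control IgG in the 6 IP libraries of the study, 1190 genes were called by DESeq2, 1403 without the filter, 1879 by limma voom with sample quality weights, 0 with endothelial content as a covariate, and 22 to 675 with a library left out (22 without 6-3-A6 IP 3, 160 without 6-3-A6 IP 4, 351 without 6-3-A6 IP 1 and 192 without control IgG IP 4). The covariate gave -0.38 for Sox7, -0.036 for Sox17 and 0.25 for Sox18, but the score separates the 2 groups of these libraries completely, so this fit cannot part it from treatment. Leaving out a library gave 0.88 to 1.32, 1.34 to 1.94 and 1.30 to 1.76. No paired analysis was possible because these 2 groups come from different mice. A replicate block was not run on them, since they share only the number 4. Same-numbered control IgG and 6-3-A6 libraries are not pairs either, and their deviations correlated with r between -0.19 and 0.37 in IP and between -0.33 and 0.24 in input. A replicate block over them left 0 genes called in both comparisons of 10 libraries. In input the sign turned with limma voom (sample quality weights) for Sox7 (0.21) and Sox18 (0.16) and, for Sox7, without control IgG input 1 (0.0733) or 6-3-A6 input 5 (0.02), over a range of -0.19 to 0.0733.

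The difference in enrichment between Sox18 and Sox7 was 0.19 to 0.45 with a tumor left out, and 0.45 without 6-3-A6 tumor 5 passed the test (exact permutation p = 0.0195). Relative to endothelial markers, the difference with a library left out was 0.27 to 0.73 for Sox17, 0.36 to 0.76 for Sox18 and 0.02 to 0.47 for Sox7, and 0.73 for Sox17 without 6-3-A6 IP 5 passed (exact permutation p = 0.0159). Per kb of transcript, Sox18 was 2.50 times Sox7 and 9.39 times Sox17 in control IgG input, 2.67 and 13.5 times in control IgG IP, and 3.36 and 15.3 times in 6-3-A6 IP. These ratios differ from those per kb of gene span by the lengths alone. Depth limits Sox17 in input most, at 4 to 37 counts.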

Other observations

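The ratio of Sox18 to Sox7 within an IP library does not depend on the scaling of the library, and it was compared between treatments after the values had been seen. The log2 ratio of CPM was 0.15 to 0.57 in control IgG and 0.52 to 0.90 in 6-3-A6 IP libraries, which overlap, and the means differed by 0.33 (two-sided exact permutation p = 0.0238, unadjusted, 1 of 3 pairs examined). The ratio of Sox18 to Sox17 differed by 0.14 (exact permutation p = 0.619) and that of Sox7 to Sox17 by -0.20 (exact permutation p = 0.389). When each library was left out in turn, the difference for Sox18 and Sox7 was between 0.28 and 0.38 (exact permutation p between 0.0159 and 0.0476). That for Sox18 and Sox17 was between 0.03 (without 6-3-A6 IP 5) and 0.29 (without 6-3-A6 IP 3), and that for Sox7 and Sox17 between -0.33 (without control IgG IP 3) and -0.08 (without 6-3-A6 IP 3).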
